A study of Mus musculus with 15 samples.

Results

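The cells described here are sorted mouse microglia from brains without amyloid, compared between mice with and without a microglial deletion of Atg7 after every cell was brought to the same number of counted RNA molecules. Members were barcodes with at least 1000 detected genes, at most 10% of molecules on mitochondrial (mt-) genes and at least 2000 unique molecular identifiers (UMIs, 1 per captured RNA molecule). Each was thinned at random to 2000 UMIs. The rule kept 7800 of 16473 deposited barcodes: 509 of 6633 control barcodes (7.67%) and 7291 of 9840 cKO barcodes (74.1%). Both libraries came from C57BL/6 mice that carried floxed Atg7 alleles (ATG7FF), were given 1.5 mg tamoxifen when 2 months old and were taken 6 months later, at 8 months. Control mice had no Cre, and the cKO mice carried Cx3cr1CreER, a tamoxifen-inducible Cre placed in the Cx3cr1 gene and so active in microglia and in other cells that use this promoter. The control library was pooled from 3 forebrains and the cKO library from 4, by sorting CD11b-high, CD45-low cells after a Percoll gradient. With 1 pooled library per genotype, every difference is one between these 2 libraries. It has no replicate check, and no test was made.

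Microglia are the resident macrophages of the brain, and ATG7 is the enzyme that activates the small proteins ATG12 and LC3 so that an autophagosome membrane can form. Autophagy delivers protein aggregates, damaged organelles and parts of the endoplasmic reticulum (ER) to the lysosome. In the ER, chaperones fold secreted and membrane proteins, and the unfolded protein response (UPR) raises their transcription when folding falls behind.

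In these depth-matched cells the cKO library held less RNA of ER chaperones and of immediate early genes, and more RNA of NRF2 targets, which serve antioxidant defence, and of Lyz2 and Cdkn1a, which encode a lysozyme and a cell-cycle inhibitor. Levels are UMIs per 1000000 thinned UMIs (CPM), and ratios are cKO over control with an exact 95% interval that covers counting error only. Of 6901 genes with at least 20 CPM in 1 library, 332 were higher in cKO by at least 1.5-fold (4.81%) and 197 were lower (2.85%). The whole interval lay beyond 1.5-fold for 33 genes that were higher (0.478%) and 48 that were lower (0.696%). The median log2 ratio over all 6901 genes was 0.03, and an interval lay wholly above 1 for 8.93% of them and wholly below 1 for 8.38%. The control side set the precision, because 20 CPM was 20.36 UMIs over the 509 control cells and 291.64 UMIs over the 7291 cKO cells. Among 762 genes at a mean of 200 CPM or more, 7 were at least 1.5-fold higher and 26 were lower. Among 344 genes below a mean of 20 CPM, which entered the count through 1 library, 111 were higher (32.3%) and 31 lower (9.01%). Members of the gene lists below that entered in this way raise their counts, while the share set beside them is that of all genes.

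**Figure D1:**
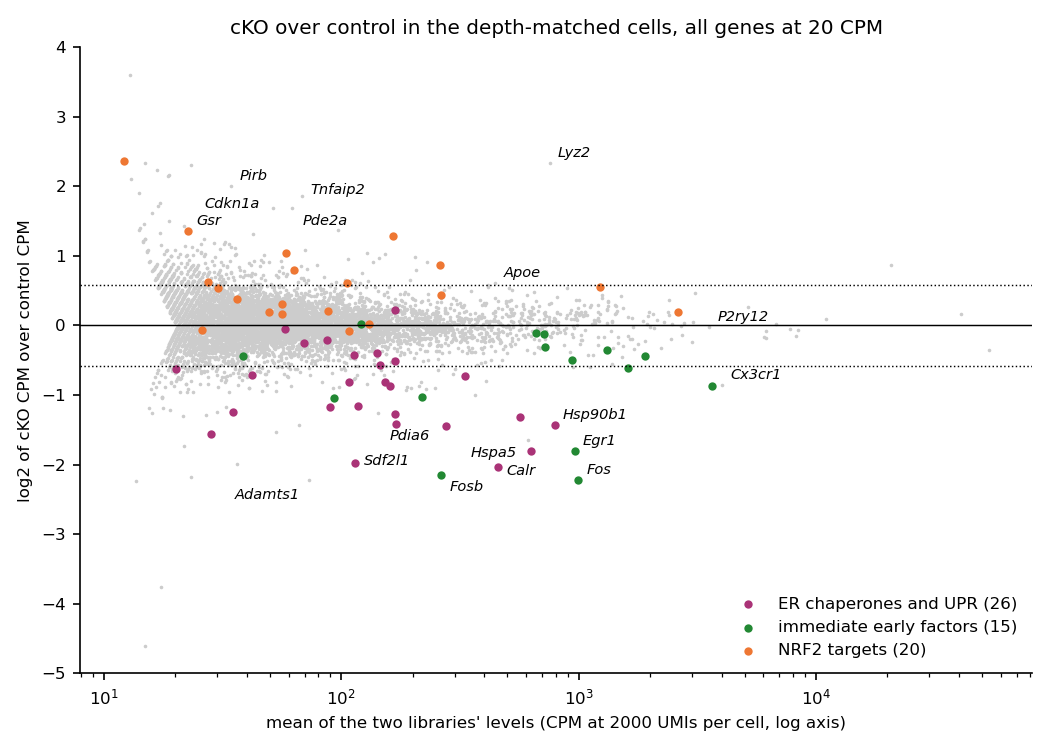
Each point is 1 of the genes with at least 20 CPM in 1 library, placed by its mean level (CPM, log axis) and its log2 ratio of cKO over control, with dotted lines at 1.5-fold. ER chaperone and UPR genes sit below 0 in all but 1 case, while NRF2 targets sit mostly above it and Lyz2 stands alone at a ratio of 5.05 among genes of its level.

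The microglial label held on both sides. P2ry12, the ADP receptor that steers microglial processes, stood at 3580 CPM in control and 3510 CPM in cKO cells (ratio 0.980, 0.948 to 1.01). Tmem119, a surface protein gene used as a microglial marker, stood at 1359 and 1209 CPM (0.890, 0.843 to 0.941). A UMI of either gene was present in 507 of 509 control cells (99.6%) and 7264 of 7291 cKO cells (99.6%). By markers of 11 other cell types, no control cell and 7 cKO cells held at least 2 UMIs of another type and more of them than of microglia markers. All 7 met this for oligodendrocyte markers. Neutrophil markers were at 0 in both libraries, T and NK cell markers at 0 and 0.343 CPM in sum, monocyte markers at 9.82 and 5.76 CPM, and border macrophage markers at 186 and 229 CPM. Of the border macrophage sum, Stab1 made up 177 and 214 CPM and the mannose receptor gene Mrc1 4.91 and 12.1 CPM. B cell markers summed to 341 and 327 CPM, most of it on Ighm (306 and 284 CPM). The Y-linked genes Ddx3y (77.6 and 88.4 CPM) and Eif2s3y (63.9 and 75.4 CPM) were present in both libraries, and Xist had 0 and 10 UMIs.

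The libraries differed in depth and RNA content beside genotype. Members held a median of 2423 UMIs before thinning among control and 4892 among cKO cells. After thinning the median number of detected genes per cell was 1159 and 1158. Mitochondrial UMIs made up a median of 1.24% and 0.969%. The nuclear RNA Malat1 stood at 38385 and 43060 CPM (1.12-fold). Gm42418, a transcript known to overlap a ribosomal RNA repeat, stood at 14707 and 26709 CPM (1.82-fold). Doublets were not removed, and no barcode was a member in both libraries. Of 22 barcodes that occur in both libraries, 14 were members in cKO and 0 in control. The part of these differences in the results below was not tested.

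Atg7 itself had 11 UMIs in the control cells (10.8 CPM) and 253 in the cKO cells (17.4 CPM), a ratio of 1.61 (0.882 to 3.26). These libraries count transcript ends, so the value does not check the deletion. Cx3cr1, the fractalkine receptor gene that carries the Cre insertion in cKO mice, stood at 5178 CPM in the control and 2856 CPM in the cKO cells (0.552, 0.536 to 0.568). It was the only 1 of 22 homeostatic genes lower by at least 1.5-fold, and the deletion of Atg7 and the altered Cx3cr1 allele cannot be told apart in this design.

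ER chaperones and UPR genes were lower in cKO as a group. Of 26 measured members at 20 CPM, 18 were at least 1.5-fold lower (against 2.85% of all genes). An interval lay wholly below 1 for 21 (against 8.38% of all genes), and 1 had a ratio above 1 (against 53.7%). The median log2 ratio was -0.84. Summed over the 29 listed genes, the level was 7232 CPM in the control and 3257 CPM in the cKO cells. Chaperones that bind unfolded chains were among the lowest. Hspa5 (chromosome 2, 34771970 to 34777547, GRCm38), which encodes the ER Hsp70 BiP, stood at 983 CPM in the control and 282 CPM in the cKO cells, 3.49-fold lower (3.25 to 3.74). Calr, which encodes the glycoprotein chaperone calreticulin, stood at 734 and 179 CPM (4.09-fold lower, 3.77 to 4.44). Its membrane-bound relative Canx (calnexin) had a ratio of 0.607. Hsp90b1, the ER Hsp90, stood at 1156 and 429 CPM (2.69-fold lower, 2.53 to 2.87). Disulfide isomerases, which form and rearrange cystine bridges, were lower as well, with ratios of 0.369 for Pdia6, 0.401 for Pdia3, 0.443 for Pdia4 and 0.567 for P4hb.

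Chaperone cofactors were lower by like amounts. Sdf2l1, which encodes an ER chaperone partner, stood at 183 and 46.4 CPM (3.94-fold lower, 3.33 to 4.64). Hyou1, a nucleotide exchange factor for BiP, stood at 42.2 and 14.3 CPM (2.96-fold lower, 2.08 to 4.13), and Fkbp2, a prolyl isomerase of the ER, at 247 and 92.5 CPM. Regulators and degradation factors ranged more widely. The UPR transcription factor gene Xbp1 had a ratio of 0.449 (0.381 to 0.532), Atf4 of 0.704 and Atf6 of 0.842 (0.667 to 1.08). Sel1l, a subunit of the ER-associated degradation complex, had a ratio of 0.865 (0.701 to 1.08). Herpud1, which helps to recruit that machinery, was the member with a ratio above 1 (155 and 182 CPM, 1.17, 0.996 to 1.38). Canx, Pdia4, P4hb and the last group of regulators except Herpud1 fall outside the naming rule and were chosen after their values were seen.

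The lower chaperone level was seen across the cells. A Hspa5 UMI was found in 81.7% of control and 38.0% of cKO cells, and in 86.8% and 62.9% before thinning. For Calr the shares were 73.3% and 27.5%, and 78.8% and 53.1% before thinning. The members hold no second cell type in number, so no background share from cells lacking these genes can be set beside them. Summed over the list, a control cell held a median of 14 UMIs of 2000 (10th to 90th percentile 9 to 21) and a cKO cell 6 (3 to 11). Of the cKO cells, 96.6% lay below the control median and 78.8% below the control 10th percentile. The ratio of variance to mean across cells was 1.81 among control and 1.80 among cKO cells.

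**Figure D2:**
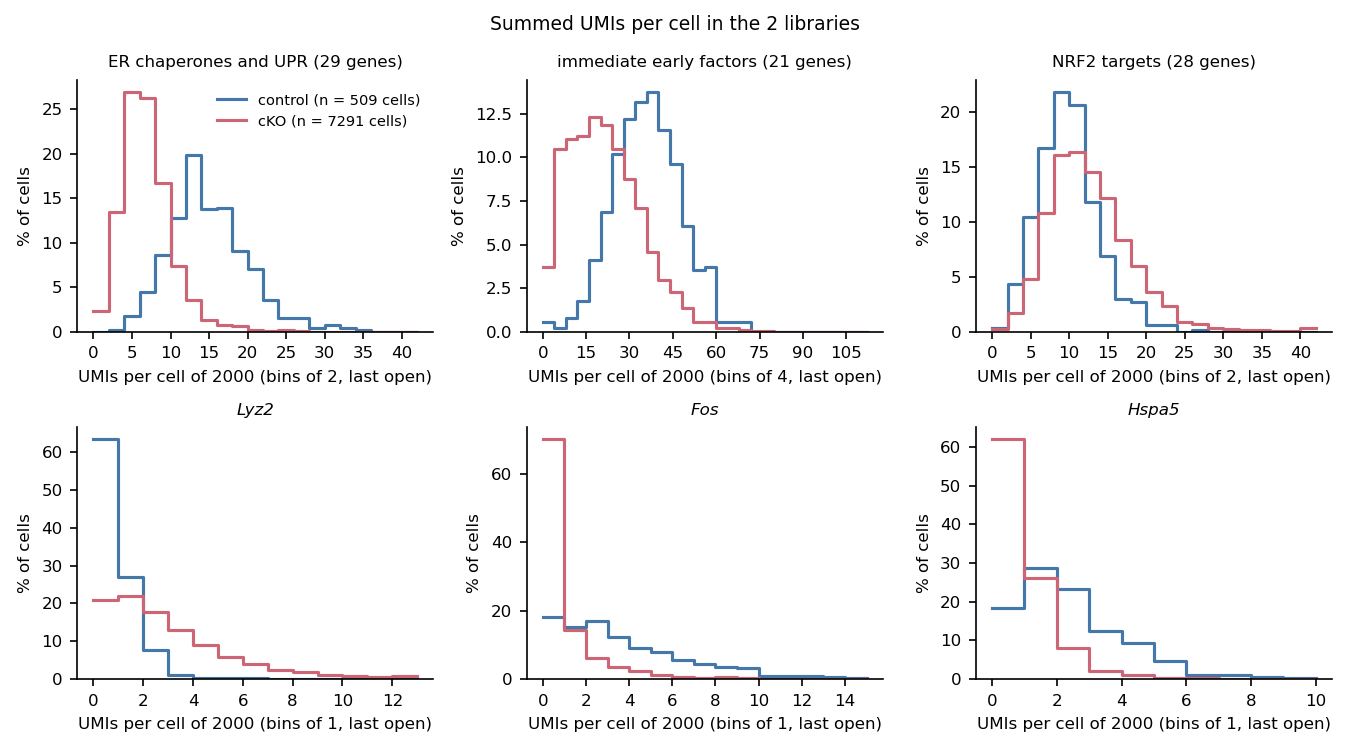
Percent of cells (y) by UMIs per thinned cell (x) for 3 gene lists and 3 genes, control in blue and cKO in red. The ER list lies at a median of 14 UMIs in control and 6 in cKO cells, 70.2% of cKO cells have 0 Fos UMIs against 18.1% of control cells, and Lyz2 lies higher in cKO cells.

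The ER stress response element is a promoter sequence known from chaperone genes of the UPR, and its matches in measured genes are shown beside their levels. The element was searched on both strands as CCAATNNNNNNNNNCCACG in RefSeq windows (GRCm38.p6) of 250 bases before to 50 after each start. It occurred in 39 of 32851 windows (0.119%) and in 8 of 5532 genes at 20 CPM that have a window. Of those 8 genes, 7 were in the ER list, a list drawn up from known targets of this response, and the other was Hnrnpa3 (ratio 0.832). The lines below give each match in capitals with 10 bases on each side, 5′ to 3′ on the strand of the gene, and on 3 of the 8 lines the match reads as the reverse complement.
Calr: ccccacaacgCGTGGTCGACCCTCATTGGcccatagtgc
Hspa5: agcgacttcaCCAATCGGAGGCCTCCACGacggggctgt
Pdia6: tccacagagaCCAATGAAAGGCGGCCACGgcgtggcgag
Hsp90b1: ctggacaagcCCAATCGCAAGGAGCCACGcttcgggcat
Hsp90b1: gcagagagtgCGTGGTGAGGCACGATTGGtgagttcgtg
Creld2: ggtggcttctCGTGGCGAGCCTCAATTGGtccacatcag
Dnajc3: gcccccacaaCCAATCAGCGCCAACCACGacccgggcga
Canx: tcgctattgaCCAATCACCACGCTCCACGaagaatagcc

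The match lay 65 to 47 bases upstream of the start in Hspa5, 162 to 144 bases in Calr, 98 to 80 bases in Pdia6 and 145 to 127 bases in Canx, and Hsp90b1 held a pair of matches. Ratios in order of the lines were 0.244 for Calr, 0.287 for Hspa5, 0.369 for Pdia6, 0.371 for Hsp90b1, 0.423 for Creld2 (49.1 and 20.8 CPM), 0.549 for Dnajc3 (206 and 113 CPM) and 0.607 for Canx (415 and 252 CPM). These 7 were thus at least 1.5-fold lower. Another ER-list gene with a match, Syvn1, which encodes a ubiquitin ligase of ER-associated degradation, lay just under 20 CPM in both libraries (19.6 and 19.6 CPM) and had a ratio of 0.998 (0.634 to 1.66). Among the 16 other ER-list genes at 20 CPM that have a window, 9 were at least 1.5-fold lower. The median ratio was 0.371 over the 7 genes at 20 CPM with a match and 0.628 over the 16 without one. A match is a description of the letters only.

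Immediate early factors, which cells transcribe within minutes of a stimulus, were lower in cKO. Of 15 members at 20 CPM, 7 were at least 1.5-fold lower (against 2.85% of all genes) and 0 were higher, 12 had an interval below 1 (against 8.38% of all genes), and the median log2 ratio was -0.50. Fos (chromosome 12, 85473890 to 85477273), an AP-1 subunit, stood at 1635 CPM in the control and 351 CPM in the cKO cells, 4.66-fold lower (4.40 to 4.92). Its relative Fosb stood at 430 and 97.2 CPM (4.42-fold lower, 3.97 to 4.93), and Egr1, a zinc-finger factor, at 1498 and 428 CPM (3.50-fold lower, 3.31 to 3.70). Atf3 stood at 126 and 61.2 CPM. Jun, the partner of Fos, was less low at 4699 and 2575 CPM (0.548), and Ier3 had a ratio of 1.02 (0.847 to 1.23). Jun was named after its value was seen.

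Genes of the delayed early response pointed the same way, with 7 of 13 at least 1.5-fold lower, 12 intervals below 1 (against 2.85% and 8.38% of all genes) and a median log2 ratio of -0.65. The largest difference among them was in Adamts1, a secreted metalloprotease gene, at 121 and 25.9 CPM (4.66-fold lower, 3.77 to 5.73). Klf4, a zinc-finger factor, stood at 96.3 and 35.9 CPM, the phosphatase gene Dusp1 at 321 and 173 CPM, and Rgs1, a regulator of G-protein signalling, at 275 and 150 CPM. In barcodes with 2000 to under 4000 UMIs the median of this list was -0.37. The chemokine genes Ccl4 (245 and 128 CPM), Ccl3 (277 and 157 CPM) and Ccl12 (255 and 136 CPM) were lower by at least 1.5-fold in a list of 7 (against 2.85% of all genes), whose median log2 ratio was -0.57.

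The share of cells with a UMI of these genes differed too. A Fos UMI was found in 81.9% of control and 29.8% of cKO cells (85.1% and 42.9% before thinning), and an Egr1 UMI in 87.0% and 36.6% (89.6% and 49.6%). Summed over immediate early factors, a control cell held a median of 36 UMIs (10th to 90th percentile 21 to 50) and a cKO cell 20 (6 to 38). The variance over the mean was 3.80 among control and 7.42 among cKO cells. Within cells, the sums of immediate and delayed early genes had a Spearman correlation of 0.32 over 509 control cells and 0.54 over 7291 cKO cells. The ER list and the immediate early list had correlations of -0.07 and 0.02. Cells of a library share its preparation, and these correlations are descriptions.

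Lyz2 (chromosome 10, 117277331 to 117282321), which encodes lysozyme M, stood at 250 CPM in the control and 1259 CPM in the cKO cells, a ratio of 5.05 (4.46 to 5.74). A Lyz2 UMI was found in 36.5% of control and 79.1% of cKO cells, and in 44.4% and 91.8% before thinning. Its near-identical neighbour Lyz1 had 0 and 3 UMIs. The other genes with the highest ratios by their lower bounds included Tnfaip2, a gene induced by tumour necrosis factor, at 29.5 and 107 CPM (3.64, 2.54 to 5.42). Pirb, which encodes an inhibitory receptor, stood at 13.8 and 55.0 CPM (4.00, 2.37 to 7.35), and Pde2a, a cyclic nucleotide phosphodiesterase gene, at 29.5 and 94.9 CPM (3.22, 2.25 to 4.79). Behind these stood the linker histone gene Hist1h1d (54.0 and 140 CPM), the acid lipase gene Lipa (101 and 206 CPM), Pdlim4 (138 and 273 CPM), Ms4a6d (84.5 and 173 CPM), the cytidine deaminase gene Apobec3 (97.2 and 190 CPM) and the sphingosine phosphate receptor gene S1pr1 (45.2 and 95.3 CPM).

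NRF2 targets were higher in cKO. Of 20 members at 20 CPM, 8 were at least 1.5-fold higher and 0 lower (against 4.81% of all genes higher). A ratio above 1 was found for 18 and an interval above 1 for 11 (against 53.7% and 8.93% of all genes). The median log2 ratio was 0.49. Blvrb, which encodes biliverdin reductase B, stood at 96.3 and 235 CPM (2.44, 2.00 to 3.01). Gclm, a subunit of the enzyme that starts glutathione synthesis, stood at 38.3 and 78.8 CPM (2.06, 1.50 to 2.91), and Gsr, which regenerates glutathione, at 12.8 and 32.6 CPM (2.56, 1.48 to 4.84). Gstm1 had 4 control UMIs and 296 cKO UMIs (5.17, 2.00 to 19.1). Gsr and Gstm1 lay under 20 CPM in the control and entered the count through cKO only. Taldo1 of the pentose phosphate pathway, which supplies NADPH, stood at 185 and 336 CPM (1.82, 1.57 to 2.11). Hmox1, the inducible heme oxygenase gene and a textbook NRF2 target, stood at 26.5 and 25.4 CPM (0.957, 0.647 to 1.47). Per cell the list had a median of 9 UMIs in control and 11 in cKO cells, and 66.4% of cKO cells lay above the control median.

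The antioxidant response element, bound by NRF2, has the core TGACNNNGC. It occurred on either strand in 8 of 22 NRF2-list genes with a window (36.4%), in 17.4% of the 5532 genes at 20 CPM and in 12.4% of all windows. The 4 genes at 20 CPM in the list with a match upstream of the start had ratios of 2.06 for Gclm, 1.73 for Txnrd1, 1.54 for G6pdx and 1.36 for Prdx1. Their sites, with the match in capitals on the strand of the gene, all read as the reverse complement.
Gclm: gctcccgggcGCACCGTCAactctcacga
Txnrd1: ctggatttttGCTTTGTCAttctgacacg
G6pdx: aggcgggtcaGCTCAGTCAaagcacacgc
Prdx1: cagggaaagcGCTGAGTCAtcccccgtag

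Txnrd1 and Prdx1 were named for their sites. Mgst1 of the list also had an upstream match but lay under 20 CPM, with 1 control and 13 cKO UMIs (0.908, 0.136 to 38.6). Ratios of the remaining listed genes, with or without a match, are not set beside these, so the sites are a description only. The site of Gclm lay 134 to 126 bases upstream of the start and that of Prdx1 133 to 125 bases.

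Heme and iron genes overlap this list. Of 12, 4 were at least 1.5-fold higher (against 4.81% of all genes) and 0 lower, with a median log2 ratio of 0.43. Slc11a1, a metal transporter of the phagosome, stood at 160 and 302 CPM (1.88, 1.61 to 2.22), Slc40a1, the iron exporter ferroportin, at 152 and 238 CPM (1.56, 1.33 to 1.85), and the heme transporter gene Slc48a1 at 18.7 and 34.8 CPM. In glycolysis 2 of 15 were at least 1.5-fold higher (again against 4.81%), Eno1 (24.6 and 60.8 CPM) and the glucose transporter gene Slc2a1 (11.8 and 24.8 CPM), and the median log2 ratio was 0.25. Slc48a1 and Slc2a1 lay under 20 CPM in the control and entered these counts through cKO only.

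Cdkn1a (chromosome 17, 29090976 to 29100727), which halts the cell cycle downstream of p53, had 25 control UMIs and 1152 cKO UMIs, 24.6 and 79.0 CPM (3.22, 2.17 to 4.99). It was found in 14 of 509 control cells (2.75%) and 700 of 7291 cKO cells (9.60%), and in 3.93% and 16.8% before thinning. A single control cell held 8 of the 25 control UMIs. In barcodes of 2000 to under 3000 UMIs the ratio was 6.73 and in those of 3000 to under 5000 UMIs it was 1.34, with 12 control UMIs in each. Of 12 p53 and arrest genes at 20 CPM, 3 were at least 1.5-fold higher (against 4.81% of all genes), with a median log2 ratio of 0.22 and 3 intervals above 1 (against 8.93%). The level summed over the list was lower in cKO, at 2844 and 2376 CPM (0.836), and most of that sum was Btg2. Trp53inp1, a p53-induced gene, had 12 control UMIs (2.12, 1.20 to 4.15), and the death gene Bbc3 had 6 (4.70, 2.14 to 12.9). Both are among the 3 but lay under 20 CPM in the control, so they entered the count through cKO only. Of genes below a mean of 20 CPM, 32.3% were at least 1.5-fold higher. Btg2, an antiproliferative gene that is also an immediate early gene, stood at 2197 and 1622 CPM (0.738, 0.707 to 0.771). In cKO cells, 522 held both Cdkn1a and Lyz2, against 554 from the product of the shares.

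Few autophagy genes reached 1.5-fold. None of 12 genes of the conjugation system reached 1.5-fold, and their median log2 ratio was 0.03. Atg5, the partner of ATG12, stood at 63.9 and 91.6 CPM (1.43, 1.12 to 1.87), while Map1lc3a had a ratio of 0.813 (0.672 to 0.992). Of 13 autophagy receptor genes, which link cargo to LC3, 11 had a ratio above 1 (against 53.7% of all genes) and 0 reached 1.5-fold. Their median log2 ratio was 0.35, and 3 had an interval above 1 (against 8.93% of all genes). Sqstm1, the receptor that is itself degraded by autophagy, stood at 103 and 151 CPM (1.46, 1.20 to 1.80), and Ccpg1, a receptor for ER fragments, at 72.7 and 107 CPM (1.48, 1.17 to 1.89). Of 11 initiation genes 1 was at least 1.5-fold higher (against 4.81% of all genes), Ulk1, a kinase gene with 9 control UMIs (2.36, 1.23 to 5.21). Ulk1 lay under 20 CPM in the control and entered the count through cKO only. In barcodes with at least 1000 UMIs, thinned to 1000, the receptor median was 0.06.

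Lysosomal genes lay close to the median of all genes. Of 33 hydrolases and membrane proteins, 2 were at least 1.5-fold higher (Lipa and Manba, against 4.81% of all genes). Intervals lay below 1 for 8 of them and above it for 5 (against 8.38% and 8.93% of all genes). The median log2 ratio was -0.07. Progranulin (Grn) stood at 955 and 783 CPM (0.820, 0.768 to 0.877). Cathepsins divided, with Ctsl at 1085 and 1324 CPM (1.22, 1.15 to 1.30), Ctsb at 1404 and 1662 CPM (1.18, 1.12 to 1.25) and Ctsa at 562 and 466 CPM (0.829, 0.761 to 0.904). The V-ATPase, which acidifies lysosomes, had 0 of 16 subunits past 1.5-fold and a median of 0.06.

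**Figure D3:**
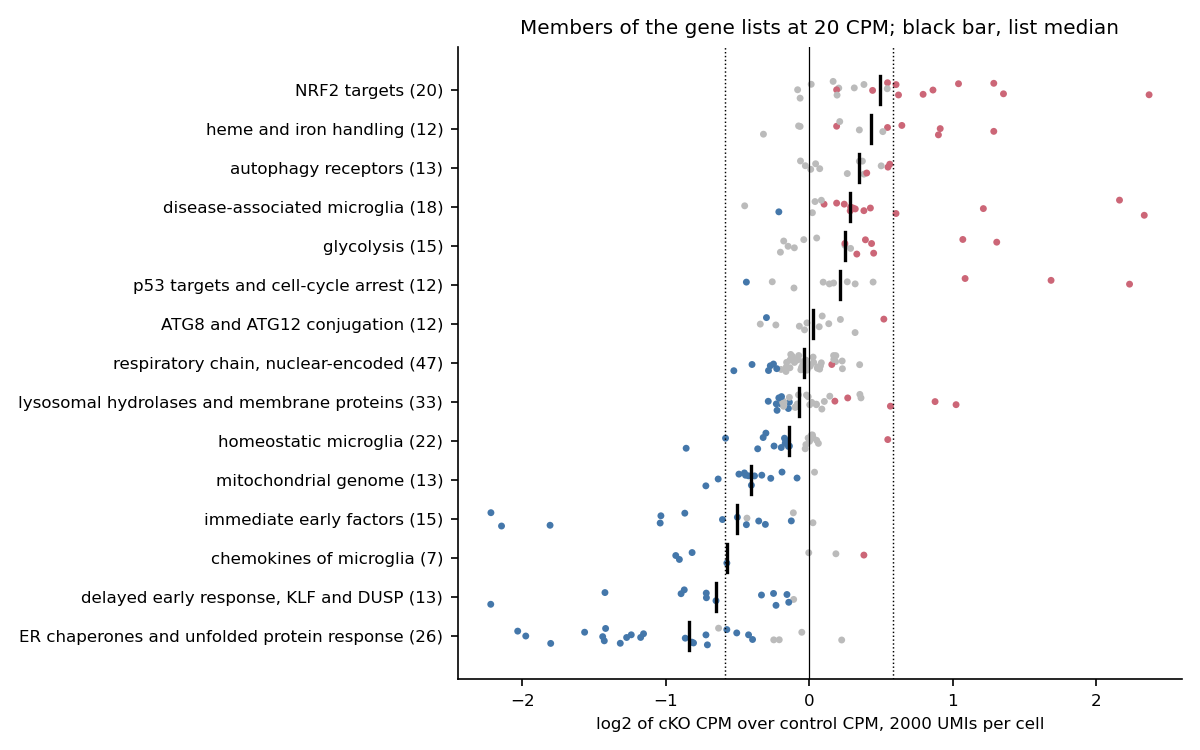
Log2 ratio of cKO over control (x) for members of selected lists with at least 20 CPM in 1 library, 1 row per list with the number of members. Red and blue points have an interval above or below a ratio of 1, and grey points include 1. Black bars are list medians, from -0.84 for ER chaperones to 0.49 for NRF2 targets among the lists drawn. The MHC class II list, with a median of -1.85 set by few cells, is not drawn.

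Homeostatic genes of microglia were somewhat lower in cKO, and disease-associated genes somewhat higher. Of 22 homeostatic genes, 1 was at least 1.5-fold lower (against 2.85% of all genes), 12 intervals lay below 1 (against 8.38%) and 1 above it, with a median log2 ratio of -0.14. Their sum was 102859 CPM in the control and 84157 CPM in the cKO cells (0.818). Most of that sum was Cst3, and Cx3cr1, the gene with the Cre insertion, is part of it. The per-cell counts and the ratios by depth that follow are of the same sum, so they mostly describe Cst3. Per cell, 78.0% of cKO cells lay below the control median of 201 UMIs and 39.8% below the control 10th percentile. In barcodes of 2000 to under 3000 UMIs, where the libraries were closest in depth before thinning, the ratio of the sums was 0.684, and from 3000 to under 5000 UMIs it was 0.835. Cst3, which encodes cystatin C, stood at 60090 and 46833 CPM (0.779, 0.773 to 0.786) and Selplg, a selectin ligand gene, at 2479 and 1984 CPM (0.800, 0.768 to 0.834). Gpr84, a receptor for medium-chain fatty acids, was the homeostatic gene with an interval above 1 (130 and 190 CPM, 1.46, 1.23 to 1.75). Of 18 disease-associated microglia genes, a programme known from cells at plaques, 4 were at least 1.5-fold higher (Lyz2, Lpl, Cst7 and Apoe, against 4.81% of all genes), 13 intervals lay above 1 (against 8.93%) and the median log2 ratio was 0.29. Lpl, a lipoprotein lipase gene, had 7 control UMIs (4.48, 2.16 to 11.2) and Cst7, a cathepsin inhibitor gene, had 9 (2.32, 1.21 to 5.12). Lpl and Cst7 lay under 20 CPM in the control and entered the count through cKO only, and the Apoe value rested on few cells. The share of all genes is therefore no like measure for this count. In barcodes with 2000 to under 4000 UMIs, 501 control and 1776 cKO, the list median was 0.08.

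Over all members, ribosomal protein and mitochondrial genes differed in opposite directions, but not at every depth before thinning. Of 31 small-subunit ribosomal protein genes 26 had a ratio above 1 and 21 an interval above 1 (against 53.7% and 8.93% of all genes). Their median log2 ratio was 0.15, and 0 were past 1.5-fold. That median was -0.15 with 4000 UMIs per cell, where 8 control cells were left. Such genes have many near-identical pseudogenes, and how reads were split between copies is not given in the sources used here. Of the 13 protein genes of the mitochondrial genome 12 had an interval below 1 (against 8.38% of all genes). Their median was -0.40, and mt-Nd4, for example, stood at 1754 and 1282 CPM (0.731). The 47 nuclear-encoded respiratory chain genes had a median of -0.04 and 0 past 1.5-fold. By depth, the small-subunit sum had a ratio of 0.905 from 2000 to under 3000 UMIs and 1.08 from 3000 to under 5000 UMIs. The mitochondrial sum had ratios of 0.971 and 0.808 there. Below the limit the directions were reversed. From 500 to under 1000 UMIs the ratios were 0.329 and 1.88, and from 1500 to under 2000 UMIs 0.470 and 1.30.

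Which genes lay past 1.5-fold differed between the matched cells and all barcodes, while the ratios of Lyz2, Fos, Hspa5 and Calr moved little. Without a UMI limit or thinning, over 6243 control and 8874 cKO barcodes with at least 500 genes, 126 of the same 6901 genes were at least 1.5-fold higher and 97 lower. Of these, 93 and 78 were also past 1.5-fold at matched depth, so most of the 332 higher and 197 lower genes of the matched cells were not past it without the limit. Lyz2 had a ratio of 5.09 without the limit and 5.05 with it, Fos 0.218 and 0.215, Hspa5 0.298 and 0.287, and Calr 0.252 and 0.244. In all, 452 of the 6901 genes had a matched interval that excluded the ratio without the limit, and 105 of them lay nearer to 1 when matched. Intervals at 95% leave out some ratios through counting error alone. The matched ratios rest on 509 control cells and those without the limit on 6243 control barcodes. Ratios of low genes are therefore less precise when matched. How far counting error or the choice of cells made these changes was not tested.

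Apoe, the lipid carrier gene, was the clearest case of a value that depended on which cells entered. It stood at 353 CPM in the control and 536 CPM in the cKO cells at matched depth (1.52, 1.37 to 1.70), and without the limit its ratio was 2.91. Control barcodes just outside the limit (1800 to under 2000 UMIs, 391 cells) held 133 CPM of Apoe and those just inside (2000 to under 2200 UMIs, 161 cells) 793 CPM. A single control cell held 220 of the 265 Apoe UMIs just inside, and without it the level was 135 CPM. In cKO the values were 61.2 CPM just outside (60 cells, 7 UMIs) and 838 CPM just inside (51 cells), or 26.6 and 570 CPM without the highest cell of each. Over the same step control Lyz2 went from 266 to 251 CPM, Hspa5 from 1021 to 930 CPM and P2ry12 from 3677 to 3694 CPM. In cKO these genes moved as well, Lyz2 from 577 to 848 CPM, Hspa5 from 341 to 205 CPM and P2ry12 from 2403 to 2646 CPM. Fos went from 1508 to 1555 CPM in the control and from 743 to 335 CPM in cKO. Apoe was present in 12.0% of control and 19.2% of cKO cells (15.7% and 29.0% before thinning), and the top 5% of cells held 89.4% and 80.3% of its UMIs. In the control, 8 cells with 5 or more Apoe UMIs held 76.0% of them. In the cKO library, 306 cells (4.20%) held 77.3%. Among the remaining cells the level was 85.8 and 127 CPM. Its interval, which assumes that UMIs fall independently, therefore understates the error.

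A small number of cells also set the values of Ttr, Enpp2 and the MHC class II genes. Ttr, the transthyretin gene that marks choroid plexus epithelium, stood at 926 and 295 CPM (3.14-fold lower in cKO) but came from 12 of 509 control cells (2.36%) and 210 of 7291 cKO cells (2.88%), with up to 305 and 842 UMIs in a cell. Enpp2 stood at 58.0 and 14.5 CPM from 5 control and 25 cKO cells, and without the depth limit its ratio was 1.10. Cd74, the MHC class II invariant chain gene, stood at 78.6 and 27.3 CPM, and 68 of its 80 control UMIs lay in 1 cell. All 33 control UMIs of H2-Aa lay in 1 cell, and 28 of 29 of H2-Eb1. Over the 6 MHC class II genes at 20 CPM the median log2 ratio was -1.85, lower than that of the ER list. Without the 6 control and 37 cKO cells with at least 5 UMIs of Ttr and Enpp2 or of these class II genes, a choice made after seeing the data, the log2 ratio of Ttr was 0.99 and that of Cd74 was 0.70. The same step left 340 genes higher and 194 lower by at least 1.5-fold.

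**Figure D4:**
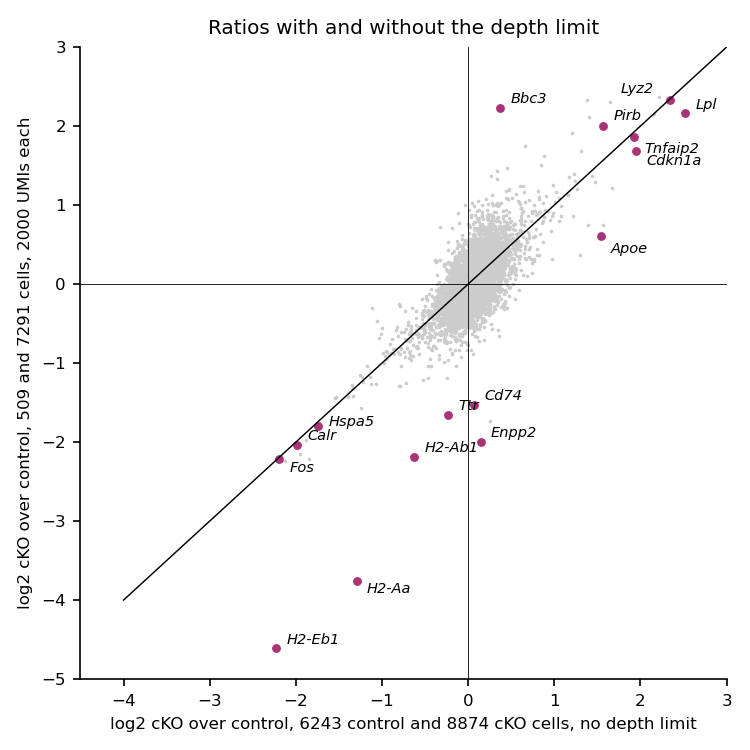
Log2 ratio of cKO over control for each gene without a depth limit (x) and at 2000 UMIs per cell (y), with the line of equal ratios. Lyz2, Fos, Hspa5 and Calr lie on the line, Apoe lies below it at 1.52 against 2.91, and Ttr, Enpp2, Cd74 and the H2 genes, held by few cells, fall far below it.

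Thinning equalized the UMIs per cell but not the depth from which they were drawn, so values were also read by depth before thinning. In control barcodes levels changed little from 500 to under 5000 UMIs: the ER list summed to between 6865 and 7291 CPM, NRF2 targets to between 4264 and 4780 CPM, and P2ry12 stood between 3409 and 3629 CPM. In cKO barcodes the same quantities were higher at higher depth. P2ry12 stood at 1637 CPM in barcodes with 500 to under 1000 UMIs, 2075 CPM at 1500 to under 2000 UMIs, 3038 CPM at 2000 to under 3000 UMIs and 3473 CPM at 3000 to under 5000 UMIs. Lyz2 in cKO barcodes went from 339 CPM at the lowest depth to 529, 1027 and 1202 CPM over those steps. Summed NRF2 targets in cKO went from 2421 to 3229, 5314 and 5962 CPM, so their ratio to the control was 0.568 at the lowest depth, 1.11 in barcodes of 2000 to under 3000 UMIs (415 control and 447 cKO cells) and 1.30 in those of 3000 to under 5000 UMIs (93 and 3415 cells).

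The ER list and Fos were lower in cKO in each of the bins up to 5000 UMIs, by amounts that varied. The summed ER list had a ratio of 0.294 at the lowest of these depths, then 0.386, 0.442 and 0.457. Calr had ratios of 0.263 and 0.245 in the last steps, from 2000 UMIs on, and Fos of 0.226 and 0.195. Below the limit Fos was less low, with ratios of 0.278, 0.313 and 0.346 in barcodes of 500 to under 1000, 1000 to under 1500 and 1500 to under 2000 UMIs. The summed immediate early factors had ratios of 0.615, 0.776 and 0.898 over those bins, then 0.690 and 0.600 within the limit. Lyz2 was 4.04-fold higher from 2000 to under 3000 UMIs (3.47 to 4.71) and 5.20-fold from 3000 to under 5000 UMIs (3.86 to 7.19). What sets cKO barcodes below the limit apart was not tested.

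**Figure D5:**
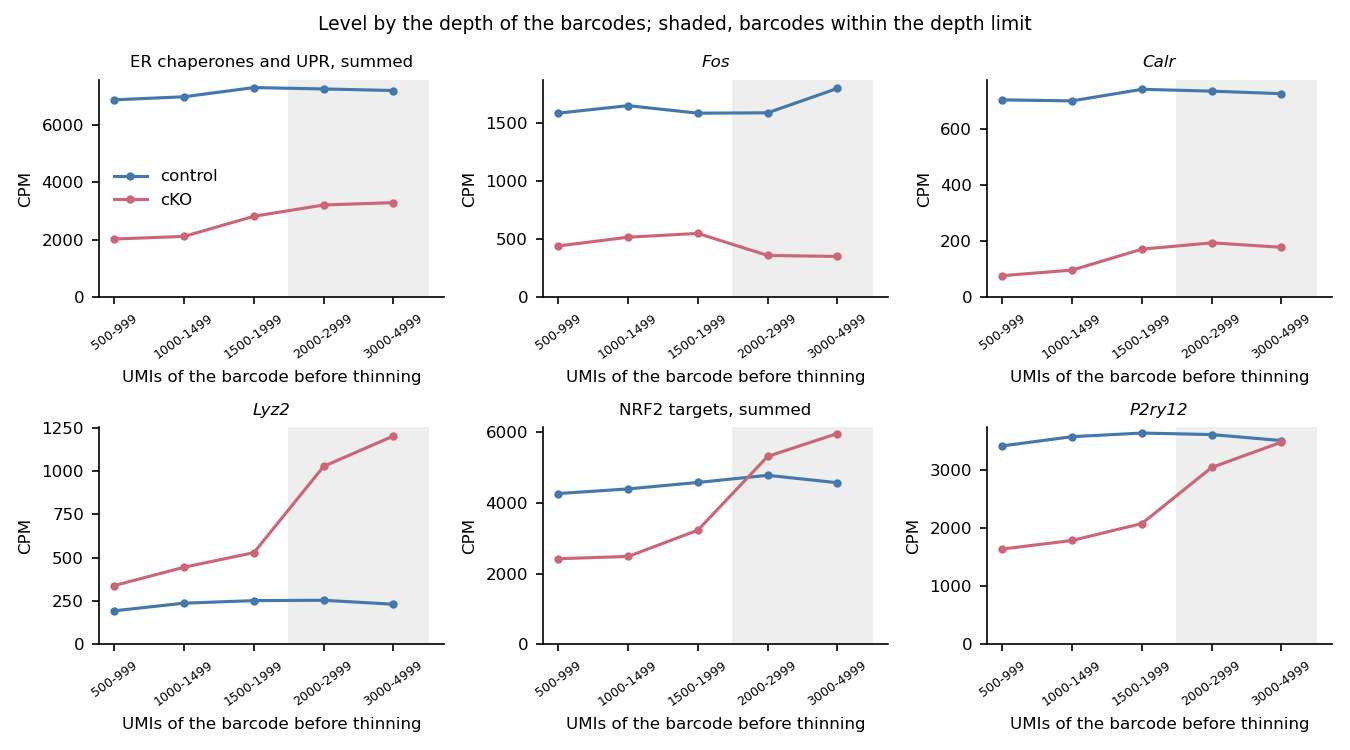
Level (CPM, y) by the number of UMIs of a barcode before thinning (x) in control (blue) and cKO (red), with barcodes within the limit shaded. Control levels are nearly flat, while cKO levels of Lyz2, NRF2 targets and P2ry12 climb with depth, and the ER list, Fos and Calr stay below the control at each step.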

How the data were processed

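The authors deposited UMI counts per gene and barcode, whole numbers that were not normalized, and per the file headers Cell Ranger 6.1.0 made them. The libraries were of the 10x 3′ version 3 kind per the labels. Seurat and the mm10 build are named in the submitters' processing notes. How the authors filtered barcodes is not given in the sources used here. Members and gene lists were chosen with earlier results of these data known. The cell rule, thinning (without replacement, fixed seed), sums and CPM were computed in Python 3.11.15 with NumPy 2.4.6, SciPy 1.17.1 and pandas 2.3.3. Where a symbol had more than 1 identifier, the one with more UMIs was kept. Ratios carry exact conditional binomial and shares Clopper-Pearson intervals at 95%, for counting error only; UMIs concentrated in few cells make them too narrow. With 1 library per group no test was made. Doublets were neither called nor removed, and no clustering was done. Levels of different genes are not per length, but transcript-end counts need no length scaling. The named genes were the 14 highest and 14 lowest by the interval bound nearest to 1 among genes at 50 CPM, up to 4 members per list in the direction of its median and 2 in the other, and fixed markers; others are said to be chosen after their values were seen. List medians use members with at least 20 CPM in 1 library. Positions are from GENCODE M21 on GRCm38, and promoter sequences from RefSeq on GRCm38.p6. Ratios, intervals and thinning were tested on simulated data. The alternatives tried were other thinning depths, cell limits, scalings and CPM limits. Bulk forebrain libraries were not used here.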

Additional observations from a re-analysis of the deposited data

How the results depend on the processing

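Each result was recomputed under 13 alternatives and 2 more chosen after seeing the data (no depth limit, and leaving out cells rich in Ttr, Enpp2 or class II genes). No paired analysis was possible because the result comes from no test and each genotype is 1 library. The median log2 ratio of all genes and the medians of ER chaperones, immediate early factors, NRF2 targets, p53 targets and autophagy receptors stayed within the range of their members' counting intervals under every alternative run. That range runs between the medians of the members' lower and upper bounds. It is wide, at -0.15 to 0.72 for autophagy receptors, -0.17 to 0.67 for p53 targets and 0.07 to 0.84 for NRF2 targets, so staying within it is a weak check. With 4000 UMIs per cell only 8 control cells were left, 2454 genes were higher and 2446 lower by at least 1.5-fold, and list medians were -0.19 for the delayed early response, 0.15 for disease-associated genes, -0.043 for homeostatic genes, -7.28 for MHC class II and -0.018 for chemokines. There the small ribosomal subunit median was -0.15, and these log2 ratios changed sign: Gpr84 -0.22, Rgs1 2.23, Relb -0.22, Nfkbia -0.12, Ccl2 0.10, Psmb9 -0.57, H2-D1 -0.83, C5ar2 0.037, Itgam 0.37, C3ar1 -0.47, Fcer1g -0.20, Cd300a -0.32, Tlr2 -0.14, Map1lc3a 0.64, Atp6v0c -0.12, Atp6v1g1 -0.36, Nr1h2 -1.42, Npc1 -0.10, Pkm -0.39, Atp5g1 0.58, Slc48a1 -1.35, Timp2 -0.028 and Tmem119 0.023. With barcodes of 2000 to under 4000 UMIs only, 569 genes were higher, medians were -0.37 (delayed early), 0.084 (disease-associated) and -0.27 (MHC class II), and Cd74 was at 1.16 and H2-Eb1 at 0.17. At 1000 UMIs per cell medians were -0.37 (delayed early) and -0.49 (MHC class II). The MHC class II median was -1.85 as reported. With a limit of 50 CPM, 77 genes were higher and 95 lower, and the MHC class II median was -0.26. At 5 CPM, 997 were higher and 521 lower, and the delayed early median was -0.33. With no depth limit, 127 were higher and 97 lower, the MHC class II median was -0.28, and Enpp2 was at 0.14, Cd74 at 0.064 and mt-Nd6 at 0.12. Without cells rich in Ttr, Enpp2 or class II genes Ttr was at 0.99 and Cd74 at 0.70. The cause of these changes was not tested, except that fewer cells or another set of genes enter by construction. The share of genes past 1.5-fold that were higher was 62.8% as reported and 44.8% at 50 CPM, 50.1% at 4000 UMIs and 57.4% after dividing by the median ratio. Of the 28 genes with the highest and lowest ratios, 25 stayed on the same side of 1 under every alternative, and Ttr, Enpp2 and Cd74 did not. These 28 were picked from the same counts for intervals far from 1. Several alternatives kept the same 509 control cells, and another CPM limit leaves the ratio of a gene as it is. Staying on the same side is therefore a weak check. With 20.36 control UMIs at the limit of 20 CPM, ratios of low genes are imprecise, and there is no replicate of either genotype.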
